A study of Mus musculus with 14 samples.

Results

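The mRNAs of 10 integrin chains (Itga4, Itga6, Itgae, Itgal, Itgav, Itgb1, Itgb2, Itgb3, Itgb5 and Itgb7) were followed in murine Th1 rep cells, Th1 cells that had been activated repeatedly in culture, after inhibition of miR-31. Every probe set of the Affymetrix Mouse 430_2 array that was annotated to 1 of these symbols and to no other gene was taken. This gave 30 of the 34945 probe sets with a single gene symbol, for 10 of 18193 genes. A probe set is a group of probes read as 1 value, and 8 of the 10 genes had more than 1. Itga4 had 5 probe sets, Itgav 5, Itgb1 6, Itgb5 4, Itga6, Itgae, Itgal and Itgb3 had 2 each, and Itgb2 and Itgb7 had 1 each.

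Cells treated with Antagomir-31 were harvested at 36 h (n = 2 arrays), 48 h (n = 2) and 72 h (n = 3), and cells treated with the control oligonucleotide Antagomir-SCR at the same times with the same numbers. In both treatments the cells were CD4+CD62Lhi T cells from spleens and lymph nodes of OT-II mice, aged 6 to 10 weeks, whose transgenic T cell receptor recognizes an ovalbumin peptide. They were stimulated with that peptide on irradiated antigen-presenting cells depleted of CD90.2+ cells, under IL-12 and anti-IL-4. IL-2 was given in all but the first stimulation. When the fourth was over, all groups, the controls included, received an antagomir at 1 µM and were reactivated with plate-bound anti-CD3 and anti-CD28 at 3 µg/ml. The labels do not say whether arrays came from separate mice or cultures. The p-values therefore reflect the spread among these arrays alone, and that spread may be technical.

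Integrins are adhesion receptors made of 1 α and 1 β chain, and a chain reaches the cell surface in a pair. In T cells, αL and β2 form LFA-1, which binds ICAM-1 and holds the cell to endothelium and to antigen-presenting cells. α4 pairs with β1 to bind VCAM-1 and fibronectin, or with β7 to bind MAdCAM-1 of gut vessels. αE pairs with β7 to bind E-cadherin of epithelia, α6 with β1 to bind laminin, and αV with β1, β3 or β5 to bind vitronectin and other ligands with an RGD motif. A microRNA lowers the level or translation of mRNAs that pair with its seed, and an antagomir blocks the microRNA it is complementary to. Of these integrin chains, Itgb3 is on the list of putative miR-31 targets that the study drew up. The mature 5p strand of miR-31 is shown with its seed (bases 2 to 8) in capitals, since it is the molecule that the treatment blocks (RefSeq, GRCm38.p6, minus strand, chr4:88910614-88910635); the arrays gave no value for it here.

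mmu-miR-31-5p: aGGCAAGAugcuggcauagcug

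Values are RMA intensities on the linear scale as deposited, and differences are given as log2. A mean log2 intensity of 6 was used to mark bright probe sets. Of the 30 integrin probe sets, 11 lay above it, namely 1 of Itga4, both of Itgal, 2 of Itgav, 3 of Itgb1, 1 of Itgb5 and those of Itgb2 and Itgb7. The other 19 were dim, among them all probe sets of Itga6, Itgae and Itgb3. Itga4 1456498_at and 1421194_at also counted as dim, at 5.99 each, though both lay above 6 at 72 h. Probe sets have different affinities, so levels were not compared between them. 4 probe sets ended in x_at and 1 in s_at, which marks probes that can also bind other transcripts, and 3 in a_at, which marks several transcripts of 1 gene.

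The markers were read to check the T cell label. 9 of the 10 probe sets for T cell and Th1 markers were bright, with a mean log2 intensity of 12.4 for Cd3d, 11.5 for Cd3g, 13.6 for Ifng and 10.4 for Tbx21. None of 6 B cell and none of 7 CD8 T and NK cell probe sets reached 6, and the brightest of 8 macrophage and monocyte probe sets was Csf1r at 6.13. Of 10 dendritic cell probe sets 2 were bright, both of H2-Ab1 (7.18 and 6.52), a class II chain of antigen-presenting cells, on which these T cells had been grown. Itga2b, at 6.25, was the only bright one of 4 platelet and megakaryocyte probe sets. The median intensity of an array at 36 h lay between 23.4 and 23.8, at 48 h between 21.8 and 22.1, and at 72 h between 27.9 and 28.4. Since each time seems to have been normalized on its own, differences between times are given as deposited and after quantile normalization over all 14 arrays. As a measure of RNA quality, the actin control probe sets gave a log2 ratio of 3' over 5' signal between 0.32 and 0.43 on the arrays of 36 h, between 0.37 and 0.41 on those of 48 h and between 0.21 and 0.27 on those of 72 h. The same ratio of the Gapdh control probe sets lay the other way over time, at -0.046 to -0.028, -0.024 to -0.012 and -0.0052 to 0.088.

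**Figure D1:**
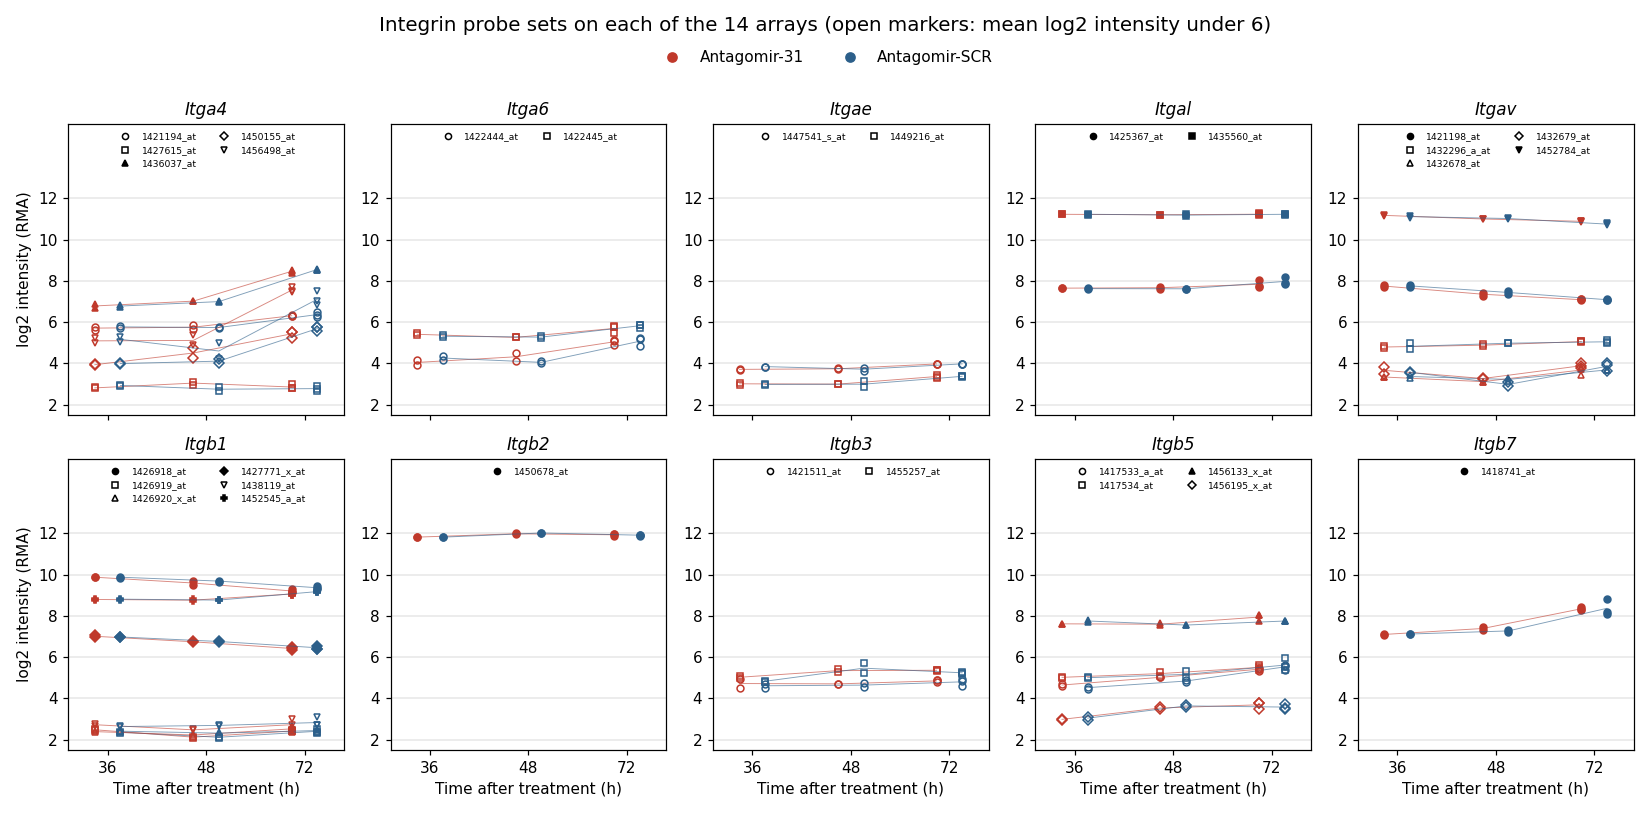
The log2 RMA intensity of each integrin probe set on each of the 14 arrays (1 point per array; 2, 2 and 3 arrays per treatment at 36, 48 and 72 h, drawn at even steps), with thin lines through the group means. Antagomir-31 (red) and Antagomir-SCR (blue) points lie close together at each time, while probe sets of Itga4 and Itgb7 sit higher at 72 h than at 36 h and 1426918_at of Itgb1 sits lower.

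The first comparison asked whether blocking miR-31 altered the mRNA of any integrin chain. No integrin probe set passed the test between Antagomir-31 and Antagomir-SCR at any time (0 of 30 at 36, 48 and 72 h, limma with Benjamini-Hochberg adjustment over all probe sets, adjusted p under 0.05). The background was as low. The same test called 0 of all 34945 probe sets at 36 h (0%), 0 at 48 h (0%) and 13 at 72 h (0.0372%), of which 8 were higher with Antagomir-31 (0.0229%) and 5 lower (0.0143%). At an unadjusted p under 0.05 there were 1, 2 and 4 of the 30 integrin probe sets at the 3 times. Of all 34945 probe sets there were 1852, 2183 and 3958, so the integrin counts were near the background. They are no result about the integrins. The median log2 fold change of the 30 probe sets at 72 h was -0.0027, and that of all probe sets was -0.0025, with 13 of the 30 above 0. In all 21 alternative settings tried, no integrin chain passed at any time.

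For the bright probe sets, confidence intervals bound the size of an effect as far as the spread among these arrays goes. Like the p-values, they rest on a spread that may be technical, and they are not adjusted for their number. At 72 h the log2 fold changes of the 11 bright probe sets ran between -0.16 and 0.19, and their 95% confidence intervals all lay between -0.34 and 0.34. At 48 h these intervals lay between -0.27 and 0.50, and at 36 h between -0.40 and 0.36. The dim probe sets were bounded less closely, with intervals from -0.51 to 0.87 at 72 h.

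**Figure D2:**
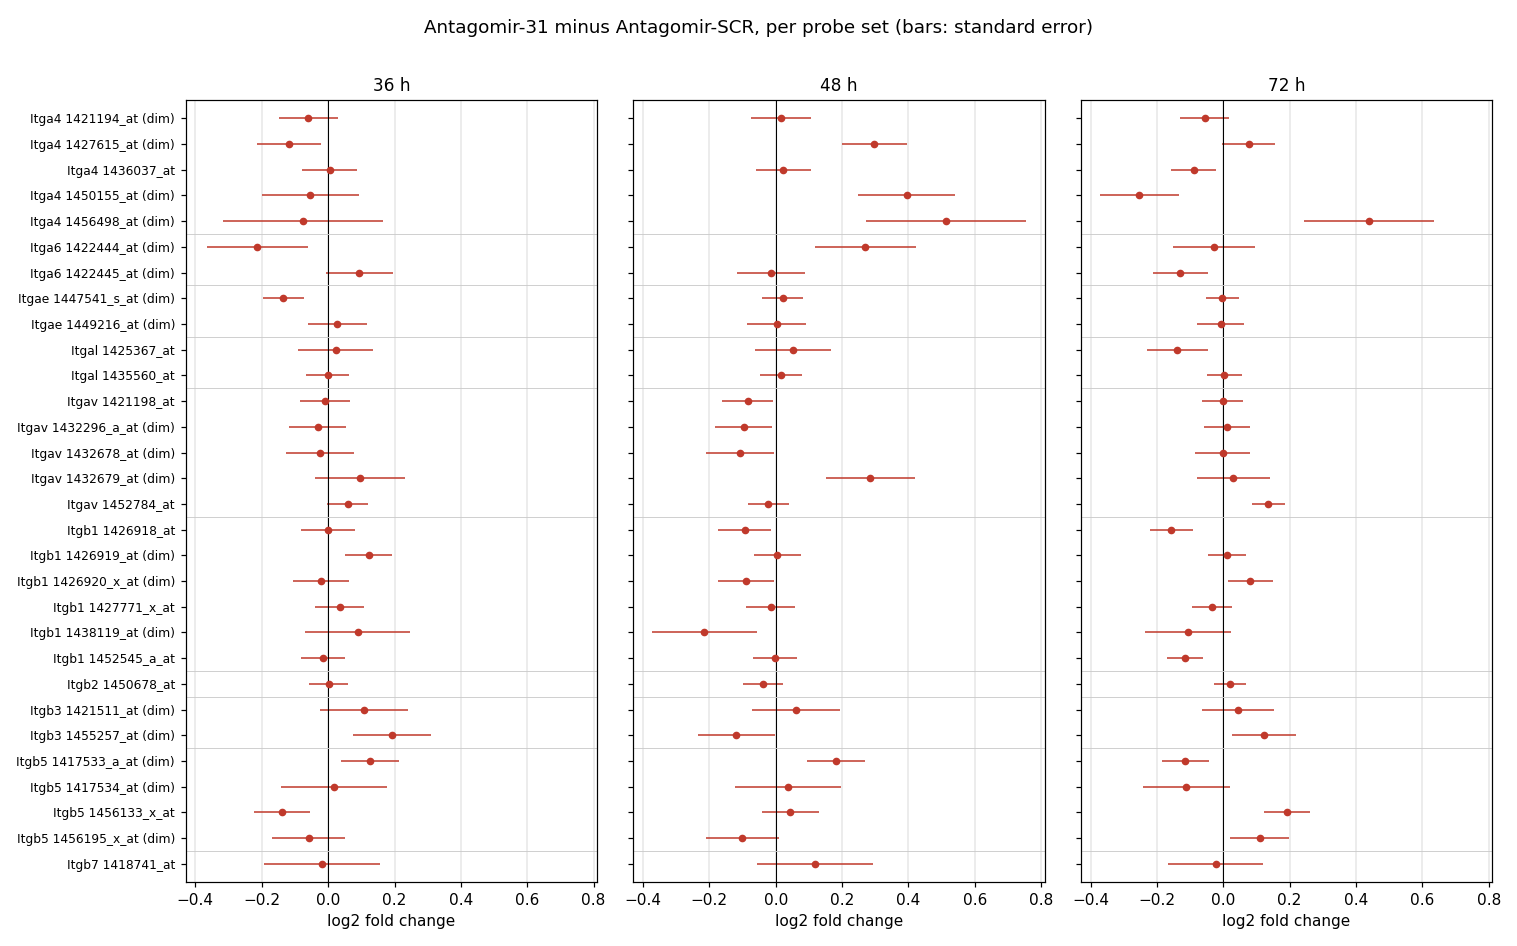
The log2 fold change of Antagomir-31 over Antagomir-SCR for each of the 30 integrin probe sets at 36, 48 and 72 h (points: limma estimates; bars: standard error; dim: mean log2 intensity under 6). No estimate passed the test, and the 11 bright probe sets lie between -0.16 and 0.19 at 72 h.

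Itgb2, the β chain of LFA-1, had the smallest standard error of the 30 probe sets at 72 h (0.049). Its probe set 1450678_at gave intensities of 3937, 3739 and 4028 in Antagomir-31-treated cells at 72 h, against 3804, 3913 and 3823 in Antagomir-SCR-treated cells. The arrays of the treatments overlapped, and the log2 fold change was 0.02 with a 95% interval from -0.09 to 0.13 (limma, adjusted p = 0.92). Itgal 1435560_at gave 2307, 2498 and 2385 with Antagomir-31 and 2301.5, 2426 and 2445 with Antagomir-SCR at 72 h, again overlapping. Its log2 fold change was 0.0032 (95% interval -0.11 to 0.12). The second Itgal probe set, 1425367_at, gave 217, 209 and 259.5 with Antagomir-31, against 228, 239.7 and 288 with Antagomir-SCR. These overlapped as well, with a log2 fold change of -0.14 ± 0.093 (SE, limma, adjusted p = 0.63). Neither chain separated the treatments beyond the spread between arrays.

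The probe sets of Itga4, the α4 chain, disagreed. The only bright one, 1436037_at, gave 373, 329 and 357 in Antagomir-31-treated cells at 72 h, against 372, 373 and 379 in Antagomir-SCR-treated cells. 1 Antagomir-31 array reached the level of the control arrays, and the log2 fold change was -0.09 (SE 0.068, limma, adjusted p = 0.68). Probe set 1456498_at was dim over all arrays, while at 72 h its mean log2 was 7.55 with Antagomir-31 and 7.11 with Antagomir-SCR. It gave 177, 181 and 204 with Antagomir-31 and 179, 129 and 113 with Antagomir-SCR at 72 h. Here replicate 2 of Antagomir-SCR was as high as the Antagomir-31 arrays while the other two were lower. The log2 fold change was 0.44 (SE 0.20, limma, adjusted p = 0.43), and 0.63 without that array (adjusted p = 0.30). The dim probe set 1450155_at pointed the other way, with 46.1, 37.4 and 46.4 in Antagomir-31-treated cells and 54.5, 46.6 and 53.3 in Antagomir-SCR-treated cells. Its arrays did not overlap, by a small margin, and its log2 fold change was -0.25 (SE 0.12, limma, adjusted p = 0.45). The dim 1421194_at gave 78.5, 78.0 and 80.8 with Antagomir-31 against 89.3, 81.1 and 76.8 with Antagomir-SCR (log2 fold change -0.06, SE 0.074). The fifth, 1427615_at, read 6.30 to 8.63 on all arrays and gave 0.08 (SE 0.080) at 72 h.

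So 2 of the 5 Itga4 estimates were positive at 72 h and 3 negative. At 48 h all 5 were positive, with 0.51 for 1456498_at (SE 0.24), 0.39 for 1450155_at (SE 0.15), 0.30 for 1427615_at (SE 0.098), 0.02 for 1436037_at and 0.02 for 1421194_at. None passed, with adjusted p-values between 0.67 and 1.00 (limma). At 48 h 1450155_at gave 19.1 and 26.7 with Antagomir-31 against 16.0 and 18.5 with Antagomir-SCR, without overlap, and so stood on opposite sides at 48 and 72 h. The difference of its treatment effect at 72 h from that at 48 h was -0.65 (SE 0.19, limma, adjusted p = 0.50), which did not pass. At 36 h the 5 estimates lay between -0.12 and 0.0043.

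The smallest p-values among the integrin chains at 72 h belonged to a β5 and the αV probe set. Itgb5 1456133_x_at gave 261, 259.8 and 218 in Antagomir-31-treated cells, against 214, 214 and 216 in Antagomir-SCR-treated cells. All Antagomir-31 arrays lay above all controls, replicate 4 by a small margin, and the log2 fold change was 0.19 (SE 0.070, limma, adjusted p = 0.32). At 36 h this probe set lay the other way, with 196 and 195 against 207 and 224, and the change of the effect between 36 and 72 h was 0.33 (SE 0.11, limma, adjusted p = 0.49). Itgav 1452784_at gave 1886, 1868 and 1911 with Antagomir-31 and 1788, 1714 and 1656 with Antagomir-SCR at 72 h. The arrays did not overlap, and the log2 fold change was 0.14 (SE 0.050, limma, adjusted p = 0.32), while it was 0.06 (SE 0.061) at 36 h and -0.02 (SE 0.061) at 48 h. The second bright probe set of Itgav, 1421198_at, gave 132, 137 and 137 against 138, 135 and 134, with a log2 fold change of -0.0018 at 72 h. The bright probe sets of αV therefore gave different estimates, and neither passed. The dim ones, 1432678_at, 1432296_a_at and 1432679_at, gave -0.0024, 0.01 and 0.03.

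Itgb1, the β1 chain shared by α4, α6 and αV, had 3 bright probe sets, all with an estimate below 0 at 72 h. 1426918_at gave 569.7, 574 and 628 in Antagomir-31-treated cells, against 648, 637 and 689 in Antagomir-SCR-treated cells, without overlap. The log2 fold change was -0.16 (SE 0.066, limma, adjusted p = 0.39). 1452545_a_at gave 522, 511 and 568 with Antagomir-31 and 584, 571 and 579 with Antagomir-SCR, also without overlap (-0.12, SE 0.054, adjusted p = 0.44). 1427771_x_at overlapped between the treatments and gave -0.04 (SE 0.060). At 36 h these 3 estimates lay between -0.02 and 0.03. The dim probe sets 1438119_at, 1426919_at and 1426920_x_at gave -0.11 (SE 0.13), 0.01 and 0.08 at 72 h.

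None of the probe sets of the other chains passed the test at 72 h either. Itgb7, the β7 chain, gave 317.5, 341 and 315 with Antagomir-31 at 72 h, against 273, 289 and 453 with Antagomir-SCR. A single control array, replicate 4, stood above all others, and the estimate was -0.02 with a wide 95% interval from -0.33 to 0.29. Without that array the estimate was 0.21 (SE 0.069, limma, adjusted p = 0.35). Itgb3, the β3 chain and putative miR-31 target, was dim. Its probe set 1455257_at gave 39.7, 41.6 and 42.0 with Antagomir-31 and 36.3, 39.2 and 37.8 with Antagomir-SCR at 72 h, without overlap and with a log2 fold change of 0.12 (SE 0.095, limma, adjusted p = 0.69). Its other probe set, 1421511_at, gave 0.05 (SE 0.11). The probe sets of Itga6 gave -0.03 and -0.13, those of Itgae -0.0030 and -0.0084, and the other three of Itgb5 lay between -0.11 and 0.11, all below the brightness of 6.

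Counted without a test of means, 3 integrin probe sets had all Antagomir-31 arrays above all Antagomir-SCR arrays at 72 h, where 7.93% of all probe sets did, and 3 had them all below, where 9.97% did. At 48 h the counts were 6 above (14.3% of all probe sets) and 6 below (17.6%), and at 36 h 4 above (14.7%) and 4 below (14.9%). Against 30 probe sets, these counts are near the background, and they are no result about the integrins. Itgav 1452784_at was above without overlap at 36 and 72 h and below without overlap at 48 h.

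Genes around the integrins were then read at 72 h in 5 lists. The other 14 measured integrin chains (24 probe sets) had 0 calls, with a median log2 fold change of 0.03. The 2 genes with the smallest p were both dim. Itga1, a collagen receptor chain, had an estimate of 0.26 for 1439713_at (SE 0.083, limma, adjusted p = 0.25) and 0.09 for its other probe set. Itga5, the fibronectin receptor chain and also a putative miR-31 target of the study, had 0.21 for 1457561_at (SE 0.077, adjusted p = 0.33) and -0.02 to 0.03 for the other three. Among 18 genes of integrin activation inside the cell (45 probe sets), which promote or restrain the binding form of integrins, 0 passed (median 0.02). Fermt3 encodes kindlin-3, which binds the tails of β chains. Its probe set 1433963_a_at gave 1146, 1105 and 1213 in Antagomir-31-treated cells, against 1436, 1398 and 1323 in Antagomir-SCR-treated cells. The groups stood well apart, with a log2 fold change of -0.26 (SE 0.065), and the adjusted p of 0.16 missed the threshold (limma). Its other probe sets gave -0.19 and -0.16, and 0.01 for the brightest, 1456014_s_at. Apbb1ip encodes the Rap1 effector RIAM. Its dim probe set 1443145_at gave 15.1, 16.7 and 14.3 with Antagomir-31 against 12.1, 13.1 and 12.04 with Antagomir-SCR (0.30, SE 0.093, limma, adjusted p = 0.23), while the brighter 1425269_at gave -0.02 (SE 0.069).

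Of 20 genes that link integrins to signalling and actin (53 probe sets), 0 passed (median -0.02). Vcl encodes vinculin, and its probe set 1416157_at gave 11.3, 11.8 and 12.3 with Antagomir-31 against 13.7, 18.4 and 18.8 with Antagomir-SCR (-0.51, SE 0.13, limma, adjusted p = 0.17), near the bottom of the range. Its bright probe set 1416156_at gave 0.0011 (SE 0.077). Of 19 integrin ligands (37 probe sets), 0 passed (median 0.0056). Lama5, a laminin chain, gave on 1427009_at 119, 116 and 115 in Antagomir-31-treated cells, against 142, 141 and 139.8 in Antagomir-SCR-treated cells (-0.27, SE 0.062, limma, adjusted p = 0.15), and -0.23 and 0.06 on its dim probe sets. Mfge8, a secreted ligand of αV integrins, gave 0.12 (SE 0.049, adjusted p = 0.37). On these probe sets neither ligand passed.

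A single probe set of the 5 lists passed the test at 72 h, where 13 of all 34945 did (0.0372%). It belonged to Cd81, a tetraspanin that associates with integrins in the membrane, among 10 membrane partners (23 probe sets, median -0.02). The lists were chosen with earlier results of these data known, so the call is no independent result about integrin partners. Cd81 1416330_at gave 649, 663 and 683 in Antagomir-31-treated cells, against 879.7, 851 and 846 in Antagomir-SCR-treated cells. It fell by 0.37 on the log2 scale (SE 0.053, limma, adjusted p = 0.034). The call was held in 7 of 20 alternative settings, and the adjusted p ran from 2.1e-04 to 0.22 over them. Of the 14 arrays, each left out in turn, it held only without replicate 4 of Antagomir-31 at 72 h or either Antagomir-SCR array of 48 h, and was lost for the other 11 (adjusted p 0.052 to 0.22). It was also lost when only the arrays of 72 h were fitted (0.22) and with the replicate number as a block (0.14). Cd47, the receptor of thrombospondin and ligand of SIRPα, had an estimate of 0.16 for 1428187_at (SE 0.066, limma, adjusted p = 0.39). Its other bright probe sets lay below 0, with -0.13 for 1419554_at (SE 0.058, limma, adjusted p = 0.44) and -0.01 for the brightest, 1449507_a_at. The dim 1430997_at and 1459908_at gave 0.17 (SE 0.13) and 0.10 (SE 0.13). Cell type markers were read beside these values. At 72 h the 10 dendritic cell probe sets summed to between 469.8 and 502 intensity units on the Antagomir-31 arrays, against 514 to 567 on the Antagomir-SCR arrays. The 8 macrophage and monocyte probe sets lay the other way with a slight overlap, at 275.3 to 284.0 against 267.7 to 275.6. The 10 T cell and Th1 probe sets summed to between 19290.0 and 19920.0 with Antagomir-31 and between 20285 and 20539 with Antagomir-SCR. The dendritic cell sum includes the 3 probe sets of H2-Ab1, the class II chain of antigen-presenting cells. These had estimates from -0.25 to -0.21 (limma, adjusted p 0.19 to 0.31). Of the 10 dendritic cell probe sets, 3 had an estimate above 0. The part of any of these in the Cd81 and integrin values was not tested. In bulk samples, fewer cells of a type and less RNA per cell cannot be told apart.

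**Figure D3:**
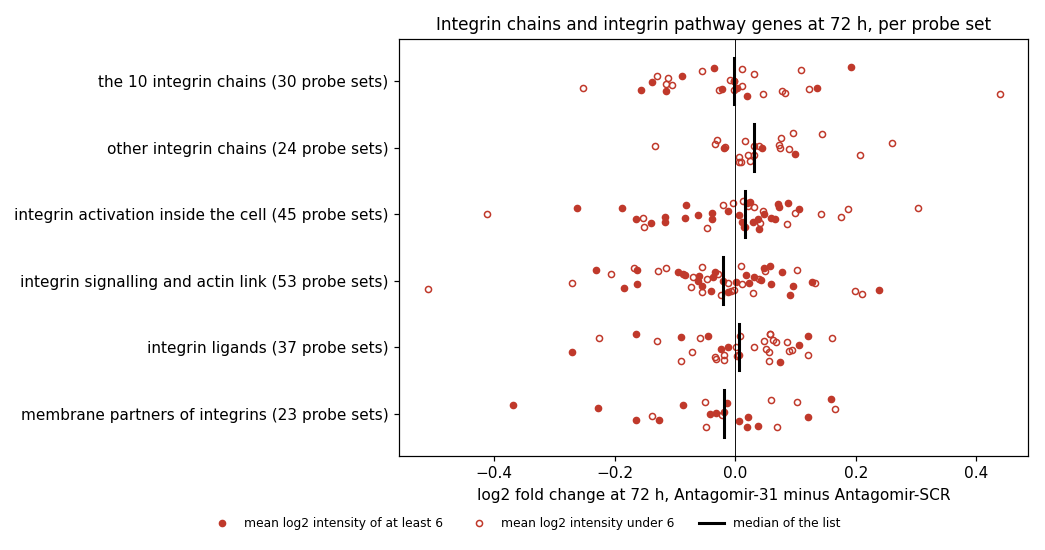
The log2 fold change of Antagomir-31 over Antagomir-SCR at 72 h for every probe set of the 10 integrin chains and of 5 lists of related genes (filled: mean log2 intensity of at least 6; open: under 6; black bar: median of the list; vertical jitter is arbitrary). The medians lie between -0.02 and 0.03, and the only probe set that passed is Cd81 at -0.37 among the membrane partners.

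Several integrin chains varied with time after treatment and reactivation, Itga4 and Itgb7 upwards and, on most of their bright probe sets, Itgav and Itgb1 downwards. Between 36 and 72 h, averaged over both treatments, 24 of the 30 probe sets passed the test in the deposited values, 20 higher and 4 lower at 72 h. Over all probe sets, 74.0% passed, 57.3% higher and 16.7% lower, so the integrin counts stood near the background. After quantile normalization over all arrays, 18 passed, 11 higher and 7 lower, where 68.4% of all probe sets did (34.9% higher, 33.5% lower). Between 36 and 48 h, 12 integrin probe sets passed in the deposited values, 6 higher and 6 lower, where 47.1% of all probe sets did (13.9% higher, 33.2% lower). After quantile normalization these were 12, 7 higher and 5 lower, against 43% of all (21.5% in each direction). Between 48 and 72 h, 22 passed, 18 higher and 4 lower, where 80.3% of all did (68.5% higher, 11.9% lower), and after quantile normalization 19, 9 higher and 10 lower, against 66.7% (34.9% higher, 31.8% lower).

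The median difference of all probe sets between 36 and 72 h was 0.22 in the deposited values and 0.0064 after quantile normalization. The 2 scales differ by about that much over all probe sets, and an integrin probe set is called higher or lower here without qualification only where both gave the same direction. Each time is a separate set of arrays that seems to have been normalized on its own. On all arrays of 72 h the actin 3' to 5' ratio was lower, and that of Gapdh higher, than on any other. Time, array set and these ratios cannot be told apart.

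Itga4 rose. Its bright probe set 1436037_at gave 119 and 102 with Antagomir-31 and 113 and 106 with Antagomir-SCR at 36 h. At 48 h it gave 128 and 131 with Antagomir-31 and 124 and 131 with Antagomir-SCR, and the 6 arrays of 72 h read 329 to 379. Every array of 72 h was higher than every earlier one, with a rise of 1.73 on the log2 scale between 36 and 72 h, or 3.31-fold (SE 0.053, limma, adjusted p = 1.6e-11), and 1.43 after quantile normalization. 0.776% of all probe sets had a larger increase in the deposited values. The dim probe sets 1456498_at and 1450155_at rose by 2.20 and 1.60 (1.89 and 1.35 after quantile normalization), and 1421194_at by 0.60 (0.28). The fifth, 1427615_at, stayed at the bottom of the range with -0.06 (-0.17 after quantile normalization). Most of the rise fell between 48 and 72 h, where 1436037_at gained 1.50 (1.17 after quantile normalization), after 0.23 between 36 and 48 h (0.26). Between 36 and 48 h the 5 probe sets disagreed, with estimates from -0.27 to 0.34 (-0.21 to 0.46 after quantile normalization).

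Itgb7, the partner of α4 and αE, also rose, as seen on its single probe set 1418741_at. It gave 133 and 141 with Antagomir-31 and 138 and 140.1 with Antagomir-SCR at 36 h, then 177 and 158 with Antagomir-31 and 151 and 158 with Antagomir-SCR at 48 h. The 6 arrays of 72 h, listed above, lay between 273 and 453 and so over all earlier ones. The rise between 36 and 72 h was 1.25 on the log2 scale (SE 0.11, limma, adjusted p = 3.8e-07), and 0.93 after quantile normalization. 2.87% of all probe sets had a larger increase in the deposited values. Between 36 and 48 h the difference of 0.22 (SE 0.12, limma, adjusted p = 0.16) did not pass, while it did without replicate 4 of Antagomir-SCR at 72 h (adjusted p = 0.0060), the array with the highest value.

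Itgb1, the other partner of α4, fell on 2 of its 3 bright probe sets. 1426918_at gave 945 and 929 with Antagomir-31 and 927 and 947 with Antagomir-SCR at 36 h, then 832 and 714.5 with Antagomir-31 and 811 and 834 with Antagomir-SCR at 48 h, and 569.7 to 689 at 72 h. The 3 times did not overlap, and between 36 and 72 h it fell by 0.59 on the log2 scale (SE 0.052, limma, adjusted p = 2.9e-07; -0.80 after quantile normalization). 1427771_x_at fell by 0.56 (-0.89 after quantile normalization). The third, 1452545_a_at, read 438 to 453 on the 4 arrays of 36 h and 511 to 584 on the 6 arrays of 72 h. Its difference was 0.32 (SE 0.043, adjusted p = 1.7e-05) in the deposited values and 0.09 (adjusted p = 0.083) after quantile normalization. The 3 dim ones had estimates of -0.0067 to 0.10, and of -0.11 to -0.01 after quantile normalization, and none passed on either scale. The bright β1 probe sets thus disagreed over time.

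Itgav fell on both of its bright probe sets. 1421198_at read 205 to 223 on the 4 arrays of 36 h, 154 to 181 on those of 48 h and 132 to 138 on the 6 of 72 h. It fell by 0.67 between 36 and 72 h (SE 0.049, limma, adjusted p = 5.2e-08; -0.99 after quantile normalization), and 3.33% of all probe sets had a larger decrease in the deposited values. 1452784_at read 2146 to 2315 on the arrays of 36 h, 2032 to 2087 on those of 48 h and 1656 to 1911 on those of 72 h. It fell by 0.33 (SE 0.040, adjusted p = 6.5e-06; -0.46 after quantile normalization). The dim probe sets of Itgav had estimates of 0.24 to 0.33, and of -0.03 to 0.17 after quantile normalization.

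**Figure D4:**
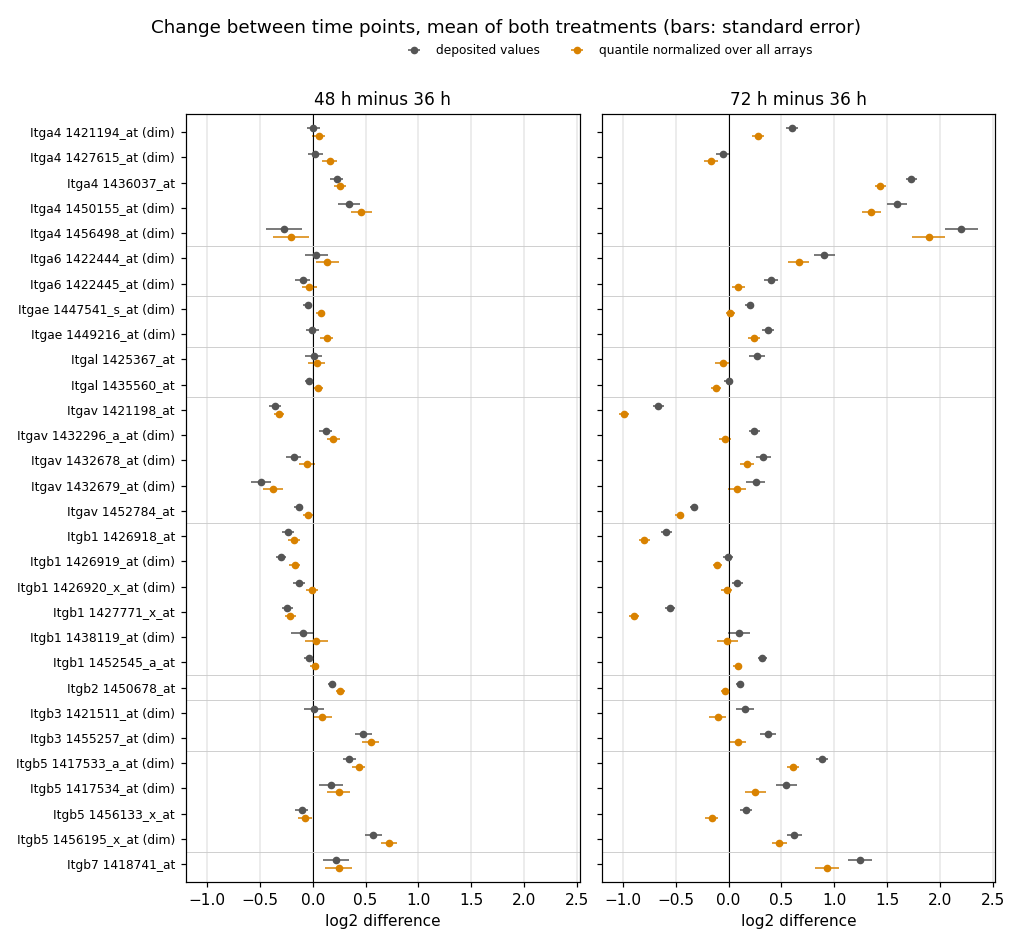
The log2 difference of each integrin probe set between 48 and 36 h (left) and between 72 and 36 h (right), averaged over both treatments (points: limma estimates; bars: standard error; grey: deposited values; orange: quantile normalized over all arrays; dim: mean log2 intensity under 6). Between 72 and 36 h, Itga4 1436037_at (1.73 and 1.43) and Itgb7 (1.25 and 0.93) lie far to the right on both scales, and Itgav 1421198_at (-0.67 and -0.99) and Itgb1 1426918_at (-0.59 and -0.80) to the left.

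The LFA-1 chains gave differences between 36 and 72 h that did not keep their direction on both scales. Itgal 1435560_at read 2356 to 2430.3 on the arrays of 36 h, 2274 to 2379 on those of 48 h and 2301.5 to 2498 on those of 72 h, so that the times overlapped. Its difference between 36 and 72 h was 0.00087 (95% interval -0.09 to 0.09) in the deposited values and -0.12 (adjusted p = 0.026) after quantile normalization. The dimmer 1425367_at gave 0.27 (adjusted p = 0.0049) and -0.06 (adjusted p = 0.51) on these scales, so its direction was not settled. Itgb2 read 3579.9 to 3628 on the arrays of 36 h, 3959 to 4156 on those of 48 h and 3739 to 4028 on those of 72 h. It rose between 36 and 48 h, by 0.18 (SE 0.042, limma, adjusted p = 0.0039; 0.26 after quantile normalization), while between 36 and 72 h it gave 0.10 and, after quantile normalization, -0.03.

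Of the remaining chains, Itga6 1422444_at rose by 0.91 between 36 and 72 h (0.66 after quantile normalization), and its probe set 1422445_at gave 0.40 and, after quantile normalization, 0.09 (adjusted p = 0.22). Itgb5 1417533_a_at rose by 0.88 (0.61), 1417534_at by 0.55 (0.25) and 1456195_x_at by 0.62 (0.48), with quantile normalized values in brackets. The bright Itgb5 probe set 1456133_x_at passed in opposite directions, with 0.16 deposited and -0.16 after quantile normalization, and the deposited call was lost without replicate 1 of Antagomir-SCR at 36 h (adjusted p = 0.076). Itgb3 1455257_at rose early, by 0.48 between 36 and 48 h (SE 0.083, limma, adjusted p = 5.4e-04; 0.55 after quantile normalization), and gave 0.37 and 0.09 between 36 and 72 h. The other Itgb3 probe set, 1421511_at, gave 0.0078 between 36 and 48 h (0.09 after quantile normalization). Between 36 and 72 h its direction differed by scale, with 0.16 and -0.10. Itgae 1449216_at rose by 0.37 (0.24 after quantile normalization) at levels under 11 intensity units. The other Itgae probe set, 1447541_s_at, gave 0.20 deposited, 0.015 after quantile normalization and -0.084 after median centring. All probe sets of these chains but 1456133_x_at were dim.

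Around the integrins, the same comparison of 72 with 36 h called 13 probe sets of the other integrin chains higher and 7 lower of 24, and 32 higher and 11 lower of 45 for integrin activation inside the cell. It called 33 higher and 7 lower of 53 for signalling and the actin link, 25 higher and 5 lower of 37 for ligands, and 11 higher and 5 lower of 23 for membrane partners. After quantile normalization the calls were 6 higher and 10 lower for the other chains, 24 and 13 for activation, 24 and 12 for signalling, 11 and 8 for ligands and 5 and 10 for partners. As shares, 47.8% to 71.1% of a list were called higher in the deposited values and 13.2% to 29.2% lower, where 57.3% and 16.7% of all probe sets were. After quantile normalization the shares were 21.7% to 53.3% higher and 21.6% to 43.5% lower, against 34.9% and 33.5% of all. The list medians ran from 0.11 to 0.34 in the deposited values, where the median of all probe sets was 0.22. After quantile normalization they ran from -0.05 to 0.15, below 0 for the other chains (-0.03) and the membrane partners (-0.05), where that of all probe sets was 0.0064.

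Itga4 and Itgb1, whose products pair with each other, moved in opposite directions over time on their brightest probe sets, so the 250 bases before their annotated starts are shown (RefSeq, GRCm38.p6, both on the plus strand, chr2:79255176-79255425 and chr8:128685404-128685653). Capitals mark matches on either strand to 2 of 5 motifs searched, a RUNX motif (TGTGGT, or ACCACA on the other strand) and a GC box (GGGCGG, or CCGCCC).

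Itga4: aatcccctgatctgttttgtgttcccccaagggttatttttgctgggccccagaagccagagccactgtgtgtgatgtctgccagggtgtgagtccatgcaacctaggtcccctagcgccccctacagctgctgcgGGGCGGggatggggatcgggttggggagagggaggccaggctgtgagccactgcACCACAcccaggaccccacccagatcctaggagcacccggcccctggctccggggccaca

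Itgb1: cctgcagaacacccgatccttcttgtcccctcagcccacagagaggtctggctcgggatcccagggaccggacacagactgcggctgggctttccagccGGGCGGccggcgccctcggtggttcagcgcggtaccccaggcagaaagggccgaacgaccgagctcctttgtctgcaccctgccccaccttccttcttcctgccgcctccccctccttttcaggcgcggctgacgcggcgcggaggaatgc

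The Itga4 window held 1 RUNX match, at bases -60 to -55 counted back from the start, a motif present in 14% of 32851 such windows, and 1 GC box, at -114 to -109. The Itgb1 window held a GC box at -151 to -146 and no RUNX match. The GC box was present in 32.7% of all windows, and in those of 3 of the 5 integrin genes with a window in the table (Itga4, Itgav, Itgb1, Itgb5 and Itgb7), the third being Itgb5. No window of these 5 genes held the ETS motif CCGGAAG (6.91% of all windows), the FOXO motif TGTTTAC (3.17%) or the T-box motif AGGTGTGA (1.12%). A match is a run of letters only, and its part in the changes was not tested.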

How the data were processed

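Total RNA of Th1 rep cells was hybridized to 14 Affymetrix Mouse 430_2 arrays. GCOS was used by the authors to read the arrays and RMA of the affy package to normalize them (versions not given in the sources used here). They deposited intensities on the linear scale, of which log2 was taken. Of 45101 probe sets, 64 controls, 932 with several symbols and 9160 with none were left out.

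1 limma fit (limma 3.58.1, R 4.3.3; tables with Python 3.11.15 and pandas 2.3.3, figures with matplotlib 3.10.9) covered 34945 probe sets and 6 groups of treatment and time, from which Antagomir-31 was set against Antagomir-SCR at every time and on average, the treatment effects of 72 h against those of 36 and 48 h, and each later time against each earlier one over both treatments. Benjamini-Hochberg adjusted p under 0.05 was called. The fit was tested on simulated data. The integrin chains, gene lists and motifs were chosen with earlier results of these data known. All member probe sets were named, and of each list those passing or, where fewer than 2 passed at 72 h, the 2 genes with the smallest p at 72 h; 1 of these genes is not reported here. Lists of cell type markers were read from the same fit. The alternatives were quantile normalization over all arrays, median centring, a mean log2 of at least 6, a trend in the prior variance, the highest probe set per gene, a fit of only the arrays compared, a replicate block and leaving out each array. The number of arrays limits the precision. Motifs were searched in the 250 bases before the start.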

Additional observations from a re-analysis of the deposited data

How the results depend on the processing

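No integrin chain passed between the treatments at any time under 21 alternatives, nor in the mean effect and its differences between times under 20, and the smallest adjusted p was 0.067 (Itgav 1452784_at at 72 h, with a trend in the prior variance). The number of all probe sets called at 72 h, 13, was 422 with only probe sets of a mean log2 of at least 6, 433 with a trend, 4 with only the arrays compared, and 2 to 181 without 1 array (181 without Antagomir-31 72 h replicate 4). Where 1 array was left in a group, it was assumed to vary like the others. Deviations of arrays with the same number were only weakly correlated (from -0.09 to 0.09). At 36 and 48 h a group had 2 arrays, whose deviations from their mean are mirror images. With so few arrays, these correlations cannot decide whether arrays with the same number belong together. The replicate block gave 7 calls at 72 h, with no integrin among them.

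Integrin genes with a call between times numbered 6 (48 against 36 h), 8 (72 against 48 h) and 10 (72 against 36 h). Over the settings these ranged over 4 to 7, 7 to 10 and 7 to 10. A gene counted if any of its probe sets passed, and of all probe sets 47.1%, 80.3% and 74% did. The share of all genes was not computed, so these counts are no result about the integrins. Scaling turned the direction between times in 29 cases where the deposited or the rescaled value passed. A case is 1 probe set in 1 comparison under 1 scaling. In 44 further cases, over all settings, the direction turned with no call on either side, and these are not listed. From 48 to 72 h, quantile normalization turned Itgae 1447541_s_at to -0.058, Itgal 1425367_at to -0.094 and 1435560_at to -0.17, Itgav 1432296_a_at to -0.23, Itgb1 1426920_x_at to -0.012, Itgb5 1456133_x_at to -0.088 and 1456195_x_at to -0.24. Median centring gave -0.11, -0.091, -0.32, -0.23, -0.14, -0.083 and -0.30 for the same probe sets, -0.059 for Itgb1 1426919_at and -0.20 for Itgb3 1421511_at. From 36 to 72 h, quantile normalization turned Itgal 1425367_at to -0.057 and 1435560_at to -0.12, Itgav 1432296_a_at to -0.033, Itgb2 1450678_at to -0.034 and Itgb5 1456133_x_at to -0.16, and median centring gave -0.014, -0.28, -0.038, -0.18 and -0.12. Among cases with a call on either side, centring alone turned Itgae 1447541_s_at to -0.084, Itgav 1432679_at to -0.026 and Itgb1 1426920_x_at to -0.20. The cause was not tested. Leaving out 1 array brought 14 calls between times, on 8 probe sets, and ended 13, on 5 probe sets. Those ended were Itga4 1450155_at and Itgav 1452784_at between 36 and 48 h, and Itgav 1432679_at, Itgb2 and Itgb5 1456133_x_at between 36 and 72 h.

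Fermt3 1433963_a_at and Lama5 1427009_at passed in 2 settings each, brightness of at least 6 (adjusted p = 0.036 and 0.027) and the trend (0.019 and 0.043). Cd44 1452483_a_at passed without Antagomir-31 72 h replicate 4 (-0.37, limma, adjusted p = 0.026), against -0.23 with it (0.39). With all arrays, the brighter Cd44 probe sets 1423760_at and 1434376_at gave 0.02 and 0.0064 at 72 h, and the dim 1443265_at 0.06. Probe sets near the bottom of the range say little about their genes.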
